A study of Mus musculus with 6 samples.

Results

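The contractile genes of heart and smooth muscle were followed across 3 groups of sorted mesodermal cells, in order to see whether they differ with the activity of Scl. Scl (gene Tal1) is a transcription factor needed for blood formation, and by its title the study asked how Scl specifies blood-forming endothelium and holds back heart development. The 36 genes were chosen by name, and all 69 probe sets of the array with exactly 1 of these symbols were used, out of 18193 genes on the array with a single symbol. Mouse ES cells were grown into embryoid bodies for 4 days, and cells with the receptor Flk1 (gene Kdr) on their surface were sorted. WT Scl+ and WT Scl- (2 arrays each) were Flk1+ cells with and without human CD4, which reports Scl, from a WT knock-in reporter line that carries human CD4 at the Scl locus. That line comes from the R1 ES line, of a (129/Sv x 129/Sv-CP)F1 blastocyst. SclKO (2 arrays) was Flk1+ cells of an Scl knockout line from the J1 ES line (strain 129S4/SvJae), which by the sorting protocol were collected on Flk1 alone. Knockout, ES line and sort gate cannot be told apart in the comparisons with SclKO. The SclKO samples are titled Scl-, although no reporter was used to sort them. Whether the 2 replicates of a group came from different cultures is not given, and p-values may therefore reflect technical spread alone.

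Muscle contracts when myosin, the motor of the thick filament, pulls on the actin of the thin filament. In heart muscle, troponin and tropomyosin on the thin filament let calcium start contraction, and titin and the proteins of the Z-disc hold the filaments in register. Smooth muscle lacks troponin, and there a kinase phosphorylates the myosin light chain in place of it. Many of these genes are read by serum response factor (SRF), which binds a sequence called the CArG box, and by MEF2 and GATA factors. In the embryo the first heart muscle cells form from mesoderm, some of which carries Flk1, and they start with embryonic and atrial forms of the light chains and with cardiac actin.

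The sequence before the start of these genes is shown first, because CArG boxes are what several of them share. The RefSeq promoter table (GRCm38.p6) held 33 of the 36 genes, and the 250 bases before each start were searched on both strands. A CArG box was found in 7 of the 33 (21.2%) and in 1.62% of the 27025 genes of the table. These 7 stretches, written 5′ to 3′ on the gene's strand with the box in capitals, came from genes of cardiac and skeletal actin, calponin 2, 3 myosin light chains and a Z-disc protein.
Actc1: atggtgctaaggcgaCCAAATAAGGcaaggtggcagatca
Acta1: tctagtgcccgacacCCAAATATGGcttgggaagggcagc
Cnn2: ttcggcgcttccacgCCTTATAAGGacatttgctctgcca
Myl3: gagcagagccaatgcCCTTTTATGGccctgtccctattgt
Myl7: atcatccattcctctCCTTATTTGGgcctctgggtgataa
Myl9: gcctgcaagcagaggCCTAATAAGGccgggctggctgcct
Ldb3: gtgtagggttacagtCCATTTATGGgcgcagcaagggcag
They lie at chr2:114052898-114052937 (minus strand), chr8:123894824-123894863 (minus), chr10:79988529-79988568 (plus), chr9:110763578-110763617 (plus), chr11:5898819-5898858 (minus), chr2:156775288-156775327 (plus) and chr14:34588692-34588731 (minus), in the order printed. A MEF2 site was found in 2 of the 33 genes (Ttn and Mybpc3, 6.06%, against 3.42% of all genes). The GATA motif GATAA was found in 10 (30.3%, against 25.5%), and the E-box CANNTG, the kind of site that Scl and its partners bind, in 27 (81.8%, against 69.3%). A CArG box and the other motifs do not overlap in the Myl7 window described next.

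The whole window is given for Myl7 and Myl4, the light chain genes on which the comparisons below turn. Capitals mark the E-box, CArG box and GATAA of Myl7, in that order. The windows are chr11:5898783-5899032 (minus strand) and chr11:104550413-104550662 (plus strand).
Myl7: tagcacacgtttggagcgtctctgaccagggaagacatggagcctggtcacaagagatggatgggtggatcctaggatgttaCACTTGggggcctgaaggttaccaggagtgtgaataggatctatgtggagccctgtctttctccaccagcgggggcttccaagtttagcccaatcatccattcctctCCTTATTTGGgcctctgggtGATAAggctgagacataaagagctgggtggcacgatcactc
Myl4: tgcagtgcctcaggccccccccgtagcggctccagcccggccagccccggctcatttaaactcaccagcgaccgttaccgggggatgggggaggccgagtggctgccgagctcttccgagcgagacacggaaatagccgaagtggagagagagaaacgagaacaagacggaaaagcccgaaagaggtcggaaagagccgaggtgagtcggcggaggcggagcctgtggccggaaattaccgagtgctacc
In the Myl7 window the CArG box begins 61 bases and GATAA 41 bases before the start. None of these 3 motifs, nor a MEF2 site, was found in the window of Myl4. A match is a description of these letters and says nothing on binding.

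Values are natural logs of the deposited values, and differences are in log units. The base of the deposited values is not stated, so 1 log unit is 2-fold if the natural log is an RMA log2 value, or 2.72-fold if the deposited values are linear. Folds are given in that order. On every array some deposited values lay past the ceiling of the scanner, which linear intensities would not exceed unless rescaled. The 2-fold reading is therefore the likelier, and the second fold of each pair is an upper figure. A value under the 40th percentile of its array (4.54 to 4.59) was taken as dim and gives no exact level. A gene was tested where its brightest probe set (highest mean) lay above that limit on at least 2 arrays. This left 30 of the 36 genes, 27 of them above the limit on all 6 arrays, and 44 of the 69 probe sets. Of the 30 genes, 19 lay above the median of all probe sets on every array and 5 above the upper quartile. The 6 genes left out were Actg2 (enteric smooth muscle actin), Myl2 (the ventricular light chain), Ryr2 and Pln (calcium release channel and calcium pump regulator of the heart), and the natriuretic peptides Nppa and Nppb. Their brightest probe sets lay between 3 and 4.43 on the 6 arrays, so no level or difference is given for them.

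**Figure D1:**
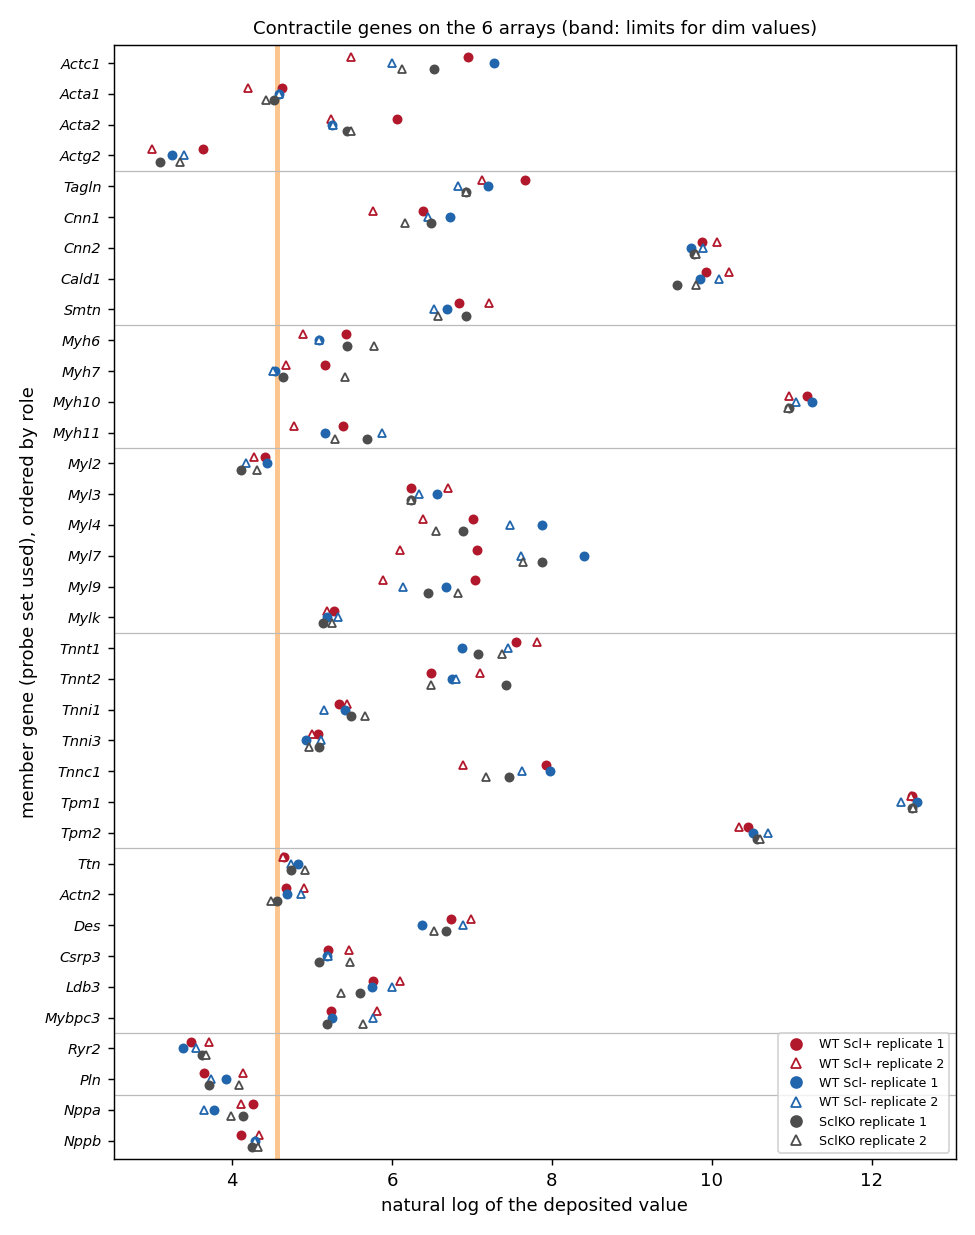
Natural log of the deposited value of the probe set used for each of the 36 genes, with a circle for replicate 1 and a triangle for replicate 2 of each group. The orange band spans the limits for dim values (4.54 to 4.59), and the genes at or left of it on all arrays were not tested; Myl7 and Myl4 show WT Scl+ left of WT Scl- without overlap.

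As a check of the labels, Tal1 was at 8.65 and 8.78 in WT Scl+, 6.52 and 7.97 in WT Scl- and 5.71 and 6.14 in SclKO. Kdr lay between 10.83 and 11.35 on all arrays, and the mesoderm genes Mesp1, Etv2 and Pdgfra were above the limit on all of them. The streak gene T, also fixed for the check, was not found under that symbol after the symbols were updated, so its level was not read. Of the 4 smooth muscle markers fixed for the check, Acta2, Tagln, Cnn1 and Myh11 were all above the limit, and of the 6 cardiac ones Nppa was dim. WT Scl+ replicate 2 stood apart from the other arrays: its correlation with each of them across the genes tested, which are not independent replicates, was between 0.9408 and 0.9687, while the other arrays correlated with each other at 0.9738 to 0.9884. Where leaving out this or another array moves a difference that is given with its SE for one of the 36 genes by over 1.5 times, the value without it follows. The other arrays did not all group by label either. WT Scl+ replicate 1 correlated at 0.9687 with WT Scl+ replicate 2, but at 0.9738 to 0.9866 with the arrays of the other groups. WT Scl- replicate 2 correlated at 0.9866 with WT Scl+ replicate 1 and at 0.9834 with WT Scl- replicate 1. Of 12 skeletal muscle markers 7 were dim, among them Myf5, Myog, Pax3 and Pax7, and the mean of the 5 tested ran from 4.97 to 5.35 over the arrays.

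Set against WT Scl-, the WT Scl+ arrays address whether contractile genes are lower in Flk1+ cells that have switched on Scl. The atrial light chain gene Myl7 and the embryonic and atrial light chain gene Myl4 were lower in WT Scl+, with no overlap of the arrays, but neither passed the test over all genes. The other 28 genes tested differed by 0.52 log units at most. The median difference of the 30 genes was 0.02 log units, and that of all 12922 genes tested -0.02. With limma, 0 of the 30 were called at an adjusted p under 0.05, as for all genes (0% called). At an unadjusted p under 0.05, 2 of the 30 (6.67%) were lower and 0 higher, against 9.14% of all genes in either direction (3.75% lower and 5.39% higher). Without overlap of the arrays, 5 of the 30 were lower and 4 higher, or 16.7% and 13.3%, against 18.5% and 18.9% of all genes, so these counts were near the background.

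In the second comparison, SclKO against WT Scl+, the median over the 30 genes was -0.02 log units, beside 0.04 for all genes tested. Myl7 was the 1 gene of the 30 past an unadjusted p of 0.05 (3.33%; 14% of all genes in either direction, 7.16% higher and 6.81% lower), and it was higher in SclKO. None of the 30 was called (0%, limma), where 1 gene of 12922 was (0.00774%). Arrays did not overlap for 6 that were higher (20%, against 23.2% of all genes) and 9 that were lower (30%, against 20.2%). In the third, SclKO against WT Scl-, the median was -0.03 log units (0.02 for all genes) and again none of the 30 was called (0%, against 0.00774%). Myl4 was the 1 gene past an unadjusted p of 0.05 (3.33%; 5.53% of all genes in either direction, 2.38% lower and 3.15% higher), and it was lower in SclKO. The arrays did not overlap for 4 higher (13.3%, against 22.9%) and 8 lower (26.7%, against 18.7%). Each group enters a pair of these comparisons, so they are not independent of each other.

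**Figure D2:**
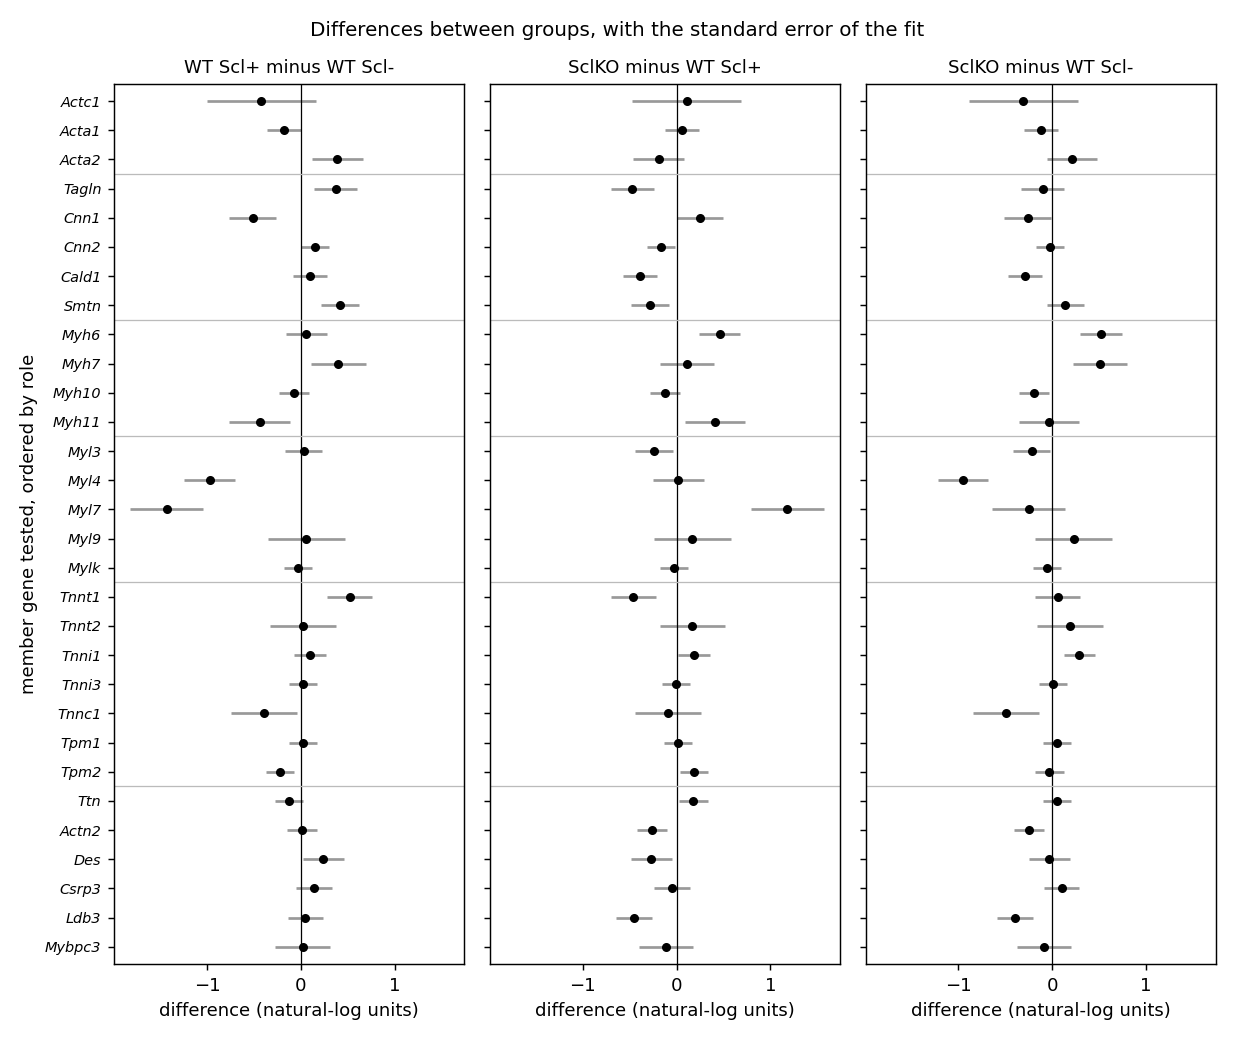
Difference between group means (natural-log units, 2 arrays a group) for the 30 genes tested, in role order, with bars for the standard error of the limma fit. Myl7 lies at -1.43 and Myl4 at -0.97 in the left panel, Myl7 at 1.18 in the middle and Myl4 at -0.95 in the right, and most other points lie within 0.5 of 0.

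The myosin light chains held the largest differences of the set. Myl7, which is made throughout the early heart tube and later in the atria, was at 7.06 and 6.1 in WT Scl+, 8.4 and 7.61 in WT Scl-, and 7.88 and 7.64 in SclKO. Both WT Scl+ arrays lay under the other 4. The difference of WT Scl+ from WT Scl- was -1.43 log units (SE 0.39, 95% interval -2.36 to -0.49), 2.69-fold or 4.16-fold lower (limma adjusted p = 0.404). SclKO was above WT Scl+ by 1.18 log units (SE 0.39, 95% interval 0.24 to 2.11), 2.26-fold or 3.24-fold (limma adjusted p = 0.28). Against WT Scl- its difference was -0.25 log units, with an interval from -1.19 to 0.69 that leaves room for a difference either way. Without WT Scl+ replicate 2, the lowest array, the differences from WT Scl+ were smaller, at -0.95 log units for WT Scl+ against WT Scl- and 0.7 for SclKO against WT Scl+. Fewer cells with Myl7 RNA and less of it per cell cannot be told apart in these sorted pools.

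Myl4, the light chain of the embryonic heart and the atria, had another order of groups. It was at 7.01 and 6.39 in WT Scl+, 7.88 and 7.47 in WT Scl-, and 6.89 and 6.55 in SclKO. Here the WT Scl- arrays stood above all others, and SclKO overlapped WT Scl+. WT Scl+ differed from WT Scl- by -0.97 log units (SE 0.27, 1.96-fold or 2.65-fold lower, limma adjusted p = 0.408) and SclKO from WT Scl- by -0.95 (SE 0.27, 1.94-fold or 2.6-fold lower, adjusted p = 0.886). Without WT Scl+ replicate 2 the first of these differences was -0.66 (limma adjusted p = 0.643). SclKO and WT Scl+ differed by 0.02 log units, with a 95% interval from -0.63 to 0.67. The other Myl4 probe set was dim on all arrays, and the mean of both probe sets gave -0.27 log units for WT Scl+ against WT Scl- and -0.48 for SclKO against WT Scl-. Both light chain genes lie on chromosome 11, as do Myh10 and Smtn. The 1119 genes tested on that chromosome had a median difference of -0.146 log units for SclKO against WT Scl+ and -0.154 against WT Scl-, while each other autosome had a median between 0.034 and 0.085 and between 0.012 and 0.06. For WT Scl+ against WT Scl- the median on chromosome 11 was -0.01 log units, where the lowest of the other autosomes was -0.082. The part of the chromosome 11 medians in the SclKO differences of Myl4 and Myl7 was not tested.

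The remaining light chains showed no such pattern. Myl3, the ventricular and slow skeletal form, was at 6.24 and 6.7 in WT Scl+, 6.56 and 6.34 in WT Scl-, and 6.23 and 6.23 in SclKO. Myl9, the regulatory chain of smooth muscle, was at 7.04 and 5.88 in WT Scl+, 6.68 and 6.13 in WT Scl-, and 6.45 and 6.82 in SclKO. The 2 further Myl3 probe sets, which share probes with other transcripts, gave 0.28 and 0.24 log units for WT Scl+ against WT Scl-, where the one used gave 0.03. The Myl9 arrays differed as much within WT Scl+ as between any groups, and the Myl9 interval (95%) for WT Scl+ against WT Scl- ran from -0.93 to 1.04 log units. Mylk, the kinase of the smooth muscle light chain, stayed between 5.14 and 5.32 on all 6 arrays.

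Of the actins, Actc1, the cardiac form, varied most. It was at 6.95 and 5.48 in WT Scl+, 7.27 and 6 in WT Scl-, and 6.53 and 6.12 in SclKO. The replicate 1 array was the higher one in every group, and the 3 groups overlapped. WT Scl+ differed from WT Scl- by -0.42 log units (95% interval -1.84 to 0.99). Its sign changed when single arrays were left out. The Actc1 difference was 0.31 without WT Scl+ replicate 2 and 0.21 without WT Scl- replicate 1, and -1.16 and -1.06 without the other array of each group. Leaving out 1 array here mixes the replicate number with the group. With the replicate number as a block the Actc1 difference stayed at -0.42 log units (SE 0.28, limma adjusted p = 0.613). Acta2, smooth muscle actin, was at 6.06 and 5.24 in WT Scl+, 5.25 and 5.26 in WT Scl-, and 5.44 and 5.48 in SclKO, where a single WT Scl+ array stood above the rest. The name of its probe set marks probes shared with other transcripts (suffix _s_at), so other actins may add to it. Acta1, the skeletal form, lay near the limit, at 4.62 and 4.2 in WT Scl+, 4.58 and 4.59 in WT Scl-, and 4.52 and 4.42 in SclKO.

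**Figure D3:**
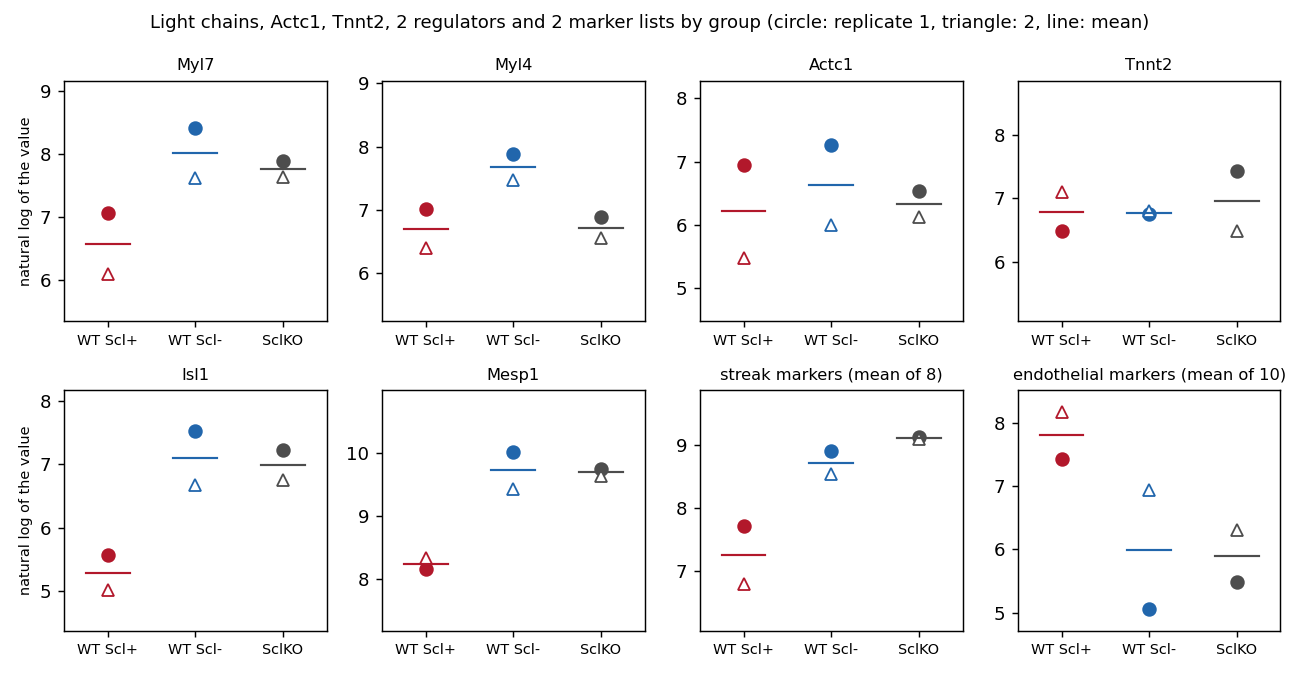
Natural log of the deposited value by group for Myl7, Myl4, Actc1, Tnnt2, the regulators Isl1 and Mesp1, and the mean of 8 streak and 10 endothelial markers; each panel spans the same number of log units. Circles are replicate 1, triangles replicate 2 and lines group means: Myl7, Isl1, Mesp1 and the streak markers are lowest in WT Scl+, Myl4 is highest in WT Scl-, and the groups overlap for Actc1 and Tnnt2.

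The actin-binding proteins of smooth muscle did not share a direction. Tagln (transgelin, an early smooth muscle marker) was at 7.66 and 7.12 in WT Scl+, 7.2 and 6.83 in WT Scl-, and 6.92 and 6.92 in SclKO. Cnn1 (calponin 1, which binds actin and slows the myosin motor) went the other way, at 6.38 and 5.76 in WT Scl+, 6.72 and 6.45 in WT Scl-, and 6.48 and 6.16 in SclKO. Both WT Scl+ values of Cnn1 lay under those of WT Scl- (difference -0.51 log units, SE 0.25, limma adjusted p = 0.622). That Cnn1 difference was -0.2 without WT Scl+ replicate 2 and -0.82 without WT Scl+ replicate 1. Smtn (smoothelin) was at 6.84 and 7.21 in WT Scl+, 6.69 and 6.52 in WT Scl-, and 6.92 and 6.57 in SclKO, so WT Scl+ stood above WT Scl- and overlapped with SclKO. Cnn2 and Cald1 are made in many non-muscle cells as well, and were bright on all arrays. Cnn2 was at 9.88 and 10.06 in WT Scl+, 9.74 and 9.89 in WT Scl-, and 9.78 and 9.8 in SclKO. Cald1 (caldesmon) was at 9.93 and 10.22 in WT Scl+, 9.85 and 10.09 in WT Scl-, and 9.57 and 9.8 in SclKO, its lowest values. All 5 Cald1 probe sets tested (1 of them dim on 1 array) were lower in SclKO than in WT Scl+ as measured, by -0.9 to -0.11 log units, with limma adjusted p of 0.413 or more.

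Among the myosin heavy chains, the bright one was Myh10, a non-muscle myosin of the cytoskeleton. Its level was 11.19 and 10.97 in WT Scl+, 11.25 and 11.05 in WT Scl-, and 10.97 and 10.95 in SclKO. Its second probe set, dim on 2 arrays, gave -0.7 log units for WT Scl+ against WT Scl- in the fit of every probe set (limma adjusted p = 0.498), where the probe set used gave -0.07. Myh6, the alpha heavy chain of the heart, was at 5.42 and 4.88 in WT Scl+, 5.09 and 5.09 in WT Scl-, and 5.44 and 5.77 in SclKO. Both SclKO values stood above the other 4, by 0.52 log units over WT Scl- (SE 0.22, limma adjusted p = 0.886). Myh7, the beta heavy chain, was dim on both WT Scl- arrays (4.53 and 4.51), and at 5.16 and 4.67 in WT Scl+ and 4.64 and 5.41 in SclKO. Its difference between SclKO and WT Scl- was 0.51 log units as measured (SE 0.29, limma adjusted p = 0.951), and for Myh7 it was 0.12 without SclKO replicate 2 and 0.9 without SclKO replicate 1. Myh11, the heavy chain of smooth muscle, was at 5.38 and 4.77 in WT Scl+, 5.16 and 5.87 in WT Scl-, and 5.69 and 5.28 in SclKO. Its second probe set gave -1.07 log units for WT Scl+ against WT Scl- (limma adjusted p = 0.5), but was dim on both WT Scl+ and both SclKO arrays.

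The troponins of heart and slow muscle lay above the limit for dim values on all 6 arrays. Tnnt2, cardiac troponin T, was at 6.48 and 7.1 in WT Scl+, 6.75 and 6.8 in WT Scl-, and 7.43 and 6.49 in SclKO. The SclKO arrays were the highest and almost the lowest of the 6, and the 95% interval of WT Scl+ against WT Scl- ran from -0.83 to 0.87 log units. Tnnc1, troponin C of heart and slow muscle, was at 7.93 and 6.89 in WT Scl+, 7.98 and 7.63 in WT Scl-, and 7.46 and 7.17 in SclKO. Its SclKO values lay below those of WT Scl-, within the range of WT Scl+. Tnnt1, the slow skeletal troponin T, was at 7.55 and 7.81 in WT Scl+, 6.87 and 7.45 in WT Scl-, and 7.07 and 7.37 in SclKO. Its WT Scl+ arrays were the highest, by 0.52 log units over WT Scl- (SE 0.24, limma adjusted p = 0.586). The Tnnt1 difference was 0.23 without WT Scl- replicate 1 and 0.82 without WT Scl- replicate 2. The troponin I genes were low: Tnni1 (slow skeletal and fetal heart) between 5.15 and 5.66, and Tnni3 (adult heart) between 4.92 and 5.11.

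The tropomyosins, which line the thin filament of muscle and also the actin cables of other cells, were bright and nearly level. Tpm1 lay between 12.37 and 12.57 on the 6 arrays, and Tpm2 between 10.34 and 10.7. For the Tpm1 probe set used, the 95% interval did not reach past 0.4 log units in any comparison. The 2 other Tpm1 probe sets above the limit differed by 0.19 and -0.34 log units between WT Scl+ and WT Scl-. The probe set used gave 0.02 there, and the intervals of the other 2 ran from -0.23 to 0.61 and from -0.8 to 0.12. The difference of the 4 Tpm2 probe sets in that comparison ran from -0.22 to 0.27.

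Among the proteins of the Z-disc and the filaments, Ttn and Actn2 were close to the limit, while Des and Ldb3 lay above the median of all probe sets on every array. Titin (Ttn) lay between 4.64 and 4.91 on the probe set used, and its 5 other probe sets were dim on at least 5 arrays. Actn2, the alpha-actinin of the Z-disc, lay between 4.49 and 4.9 and was dim on 1 array. Csrp3, a muscle LIM protein, lay between 5.09 and 5.47, and Mybpc3, the cardiac myosin-binding protein, between 5.19 and 5.81. Ldb3, which ties alpha-actinin to signalling proteins, was at 5.76 and 6.1 in WT Scl+, 5.75 and 6 in WT Scl-, and 5.6 and 5.36 in SclKO. Both SclKO arrays were lowest, by -0.45 log units from WT Scl+ (SE 0.19, limma adjusted p = 0.372), and by -0.28 without WT Scl+ replicate 2. Des, the desmin gene of the muscle intermediate filament, was at 6.74 and 6.99 in WT Scl+, 6.37 and 6.89 in WT Scl-, and 6.67 and 6.52 in SclKO. By role, the median difference of WT Scl+ from WT Scl- was -0.18 log units for the 3 actins tested, 0.15 for the 5 actin-binding proteins, -0.01 for the 4 heavy chains, -0.03 for the group of 5 made up of the light chains and Mylk, which is the value of Mylk itself, 0.02 for the 7 troponins and tropomyosins and 0.04 for the 6 Z-disc and filament genes.

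The genes of the same machinery outside the 36 were read from lists written down with the members. Of 30 other sarcomere and calcium genes 18 were tested, and 0 were called in any comparison. Their median differences were -0.2, 0.09 and -0.02 log units in the order of the comparisons above. The LIM protein Pdlim5 of the Z-disc was lowest in WT Scl+ too, at 7.55 and 7.33 in WT Scl+, 8.15 and 7.88 in WT Scl-, and 8.19 and 7.93 in SclKO (-0.58 log units for WT Scl+ against WT Scl-, limma adjusted p = 0.447). Its 6 other probe sets above the limit gave -0.85 to -0.23 in that comparison. The fast troponin I gene Tnni2 was highest in WT Scl+ (5.99 and 6.21, against 5.64 and 5.58 in WT Scl- and 5.59 and 5.31 in SclKO; adjusted p = 0.478 and 0.21 with limma). Myl1, the fast skeletal light chain, was dim on both WT Scl+ arrays, and its difference from WT Scl- of -1.02 log units came to -0.06 with dim values set to the limit.

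Of 28 other smooth muscle and cytoskeletal genes 25 were tested, with 0 called in any comparison and medians of -0.1, 0.16 and 0.17 log units. Without overlap of the arrays, 12 of the 25 were higher and 3 lower in SclKO than in WT Scl+ (23.2% and 20.2% of all genes). Beside WT Scl-, 13 were higher and 2 lower in SclKO (22.9% and 18.7%). Between the WT groups, 6 were higher and 7 lower in WT Scl+ (18.9% and 18.5%). The cause of these counts was not tested. Synm, an intermediate filament protein, was at 5.39 and 5.36 in WT Scl+, 5.52 and 5.43 in WT Scl-, and 6.32 and 6.31 in SclKO. SclKO thus stood above both WT groups, by 0.94 log units over WT Scl+ (SE 0.14, limma adjusted p = 0.119) and 0.84 over WT Scl- (adjusted p = 0.797); another Synm probe set gave 0.31 and 0.43. Tagln2, a relative of transgelin made outside muscle, was at 8.99 and 9.62 in WT Scl+, 8.12 and 8.51 in WT Scl-, and 8.44 and 8.78 in SclKO. Actn1, the non-muscle alpha-actinin, was highest in SclKO (9.85 and 9.99, against 9.27 to 9.59 on the WT arrays; adjusted p = 0.354 against WT Scl+ and 0.886 against WT Scl- with limma). Its 2 other probe sets were also higher in SclKO than in both WT groups, but gave -0.39 and -0.31 log units for WT Scl+ against WT Scl-, where the one used gave 0.17.

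Among the regulators of contractile genes, 20 of 21 were tested and 0 were called. At an unadjusted p under 0.05, 5 of these 20 had lower and 2 higher values in WT Scl+ beside WT Scl-, against 3.75% and 5.39% of all genes. In SclKO beside WT Scl+, 5 had higher and 0 lower values (7.16% and 6.81% of all genes), and in SclKO beside WT Scl- 1 and 0 (3.15% and 2.38%). Isl1, which marks progenitors of the second heart field, followed the order of Myl7 at 5.57 and 5.01 in WT Scl+, 7.53 and 6.68 in WT Scl-, and 7.23 and 6.75 in SclKO. Mesp1, the factor of the earliest cardiac mesoderm, was at 8.16 and 8.33 in WT Scl+, 10.01 and 9.43 in WT Scl-, and 9.74 and 9.64 in SclKO. Gata6 was lowest in WT Scl+ (8.19 and 8.1), higher in WT Scl- (8.68 and 8.81) and highest in SclKO (9.11 and 9.41), and another of its probe sets gave only -0.15 log units between the WT groups. For the differences of Isl1, Mesp1 and Gata6 between the WT groups the limma adjusted p was 0.397, 0.397 and 0.409. Another Isl1 probe set gave -2.05 log units.

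Markers of other cell types differed between the same groups. Of all genes tested, 18.5% were lower and 18.9% higher in WT Scl+ than on the WT Scl- arrays without overlap. All 8 primitive streak markers tested were lower without overlap, out of 9 listed, as T was not found under that symbol. Their mean level was 7.72 and 6.79 in WT Scl+, 8.89 and 8.54 in WT Scl-, and 9.12 and 9.08 in SclKO. Among them Mixl1 differed by -1.92 log units, Gsc by -1.32 and Mesp1 by -1.47. All 10 endothelial markers tested were higher without overlap, with a mean of 7.43 and 8.17, 5.05 and 6.94, and 5.48 and 6.31; Emcn was dim, and Tie1, Egfl7 and Mmrn2 differed by 1.32, 0.81 and 0.78. All 8 blood markers tested were higher without overlap too (7.22 and 6.7, 5.16 and 5.78, 4.93 and 5.03), with Ptprc among the dim ones, and Gfi1b, Hba-x and Hbb-bh1 differed by 1.56, 1.55 (0.87 with dim values set to the limit) and 2.67. None of the genes in these 3 lists was called in any comparison. Mean levels of the endoderm list ran from 5.82 to 7.09 over all arrays, of the pluripotency list from 5.93 to 7.28 and of the mesenchyme list from 6.34 to 7.26. Hhex, made in endoderm and endothelium, differed by 1.83 log units between the WT groups, and Pdgfra of mesoderm by -1.13. In SclKO beside WT Scl+ the 8 pluripotency markers tested went both ways, 5 higher and 3 lower. They ran from -0.59 to 1.52 log units, the highest being Pou5f1. The part of these cell types in the values of Myl7 and Myl4 was not tested.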

How the data were processed

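RNA of 6 arrays in 3 groups of 2 was analysed. Groups and replicate numbers came from the sample titles. The submitters' processing notes name RMA, affy and limma without versions, the tools the authors used. The values they deposited have no stated unit; they ran from 3.256 to 2822995, past the 65535 ceiling of a 16-bit scanner, and their natural log (1.18 to 14.85) was used. Between 1040 and 1153 probe sets per array exceeded that ceiling. Read depth does not apply to arrays, and their number limits the precision.

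Probe sets with 1 symbol in the platform annotation were used (34945, without the 64 controls), with symbols updated through Entrez identifiers. Per gene the probe set with the highest mean was fitted with limma 3.58.1 in R 4.3.3, as a mean per group over all 6 arrays (residual degrees of freedom 3, prior 3.16), for the 12922 genes above the 40th percentile on at least 2 arrays. Tests were two-sided with Benjamini-Hochberg adjustment over all genes tested, called at 0.05. An exact permutation test of 2 arrays against 2 cannot go below p = 0.333 and was not used. The fit was tried on simulated data with known shifts and independent errors. A shared replicate effect or an array that stands apart was not simulated.

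The members and lists were chosen with earlier results of these data known. All 36 genes are accounted for. By the rule, a difference is given at an unadjusted p under 0.05, or where arrays did not overlap and it reached 0.5 log units, and another probe set where its sign or size departs. Differences given for other genes (Actc1, Tnnt2, Ldb3 and Cald1 among them) were chosen after their values were seen. Genes of other lists were taken from the 3 with the smallest p. Alternatives tried were a block for the replicate number, other filters, probe set rules, scalings, a floor for dim values, other fits, and each array left out.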

Additional observations from a re-analysis of the deposited data

How the results depend on the processing

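Under all 11 alternatives that kept every array and with each array left out, 0 of the contractile genes were called in any comparison; the lowest adjusted p was 0.0576 (limma, Myl7, SclKO against WT Scl+, without WT Scl+ replicate 1), where it was 0.28 with all arrays and ran up to 0.771 over the alternatives. Of 1476 values of single genes under these alternatives, 90 had the other sign and 75 moved by more than the residual SD; these include Myl4 under the mean of its probe sets (-0.27 and -0.48 log units for WT Scl+ and SclKO against WT Scl-). The median difference of the contractile genes moved by less than 0.26 log units throughout. That is the SD between replicates of their median level on an array, which does not measure the spread of a median difference. The median difference moved most with the 60th percentile filter, to -0.11 for SclKO against WT Scl+ and -0.14 for SclKO against WT Scl-. With arrays left out it ran from -0.01 to 0.04 for WT Scl+ against WT Scl-, from -0.09 to 0.03 for SclKO against WT Scl+ and from -0.09 to 0 for SclKO against WT Scl-.

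Counts over all genes did change. For SclKO against WT Scl+, 1 gene was called, but 3 with the replicate block, 9 with the 60th percentile filter, 2 with every probe set, 4 with the mean of probe sets, 7 with dim values set to the limit, 49 with only the groups compared and 18 with a trend in eBayes; with arrays left out the count ran from 0 to 701. For SclKO against WT Scl-, 1 was called, and 2 with the 60th percentile filter, every probe set, dim values at the limit or array weights, 4 with the mean of probe sets and 3 with the trend; with arrays left out it ran from 0 to 1. For WT Scl+ against WT Scl- it ran from 0 to 203, the highest without WT Scl+ replicate 1. The cause was not tested.

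Deviations of arrays with the same replicate number correlated between groups at 0.247 to 0.254, but 2 numbers do not settle a pairing. With the replicate number as a block, the adjusted p was 0.125 for Myl7 and 0.126 for Myl4 (WT Scl+ against WT Scl-), 0.0903 for Myl7 (SclKO against WT Scl+) and 0.556 for Myl4 (SclKO against WT Scl-), and the block called 0 of the contractile genes. Of the 30 tested, 6 were higher in replicate 1 than in replicate 2 in every group (Actc1, Cnn1, Myh10, Myl4, Myl7 and Tnnc1) and 5 lower in every group, or 20% and 16.7%, against 23.4% and 14.1% of all genes.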
